A study of Mus musculus with 9 samples.

Results

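The genes described here encode dehydrogenases of the tricarboxylic acid (TCA) cycle and their paralogues, and they were taken by symbol from a table of 55401 genes measured in mouse embryonic forebrain. All 10 were found in the table: *Idh1*, *Idh2*, *Idh3a*, *Idh3b*, *Idh3g*, *Ogdh*, *Ogdhl*, *Dlst*, *Mdh1* and *Mdh2*. Bulk forebrain RNA came from 5 Npas3+/+ (WT) and 4 Npas3+/- (HET) female embryos at embryonic day 16 to 17, all on the C57BL/6J background, and the WT embryos were littermates of the HET embryos. HET embryos carry a constitutive deletion of 1 copy of *Npas3*, the gene of a basic helix-loop-helix PAS transcription factor of the nervous system, and no treatment is given for either group. The study addressed the part of *Npas3* in energy metabolism, and each enzyme of the oxidative steps of the cycle is compared here on its own.

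The TCA cycle oxidises acetyl units in the mitochondrial matrix, and its dehydrogenases pass electrons to NAD or FAD for the respiratory chain. Isocitrate is oxidised to 2-oxoglutarate by the NAD-dependent enzyme of the cycle, whose subunits are encoded by *Idh3a*, *Idh3b* and *Idh3g*, and also by the NADP-dependent enzymes IDH1 in the cytosol and IDH2 in mitochondria. The 2-oxoglutarate dehydrogenase complex then makes succinyl-CoA, and malate dehydrogenase closes the cycle, with a cytosolic form that works in the malate-aspartate shuttle. In brain, 2-oxoglutarate is also the entry point for carbon from glutamate.

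NPAS3 belongs to a family of factors that bind the E-box (CANNTG), which the study also names for NPAS3, so the promoters of these genes are shown first. RefSeq promoters on GRCm38.p6, each from 250 bases before to 50 bases after a start, were found for 9 of the 10 genes, with 15 promoters in all because *Idh1* and *Ogdh* have several. *Idh3a* was not among them. An E-box, which reads the same on both strands apart from its middle letters, was present in promoters of 8 of the 9 genes and absent from the window of *Idh2*. Across all 32851 promoters of that table, 72.3% held at least 1 E-box, so its presence in most of these genes is a common feature. *Ogdhl* held 4, the most of any of these promoters, against a share of 6.5% of all promoters with 4 or more. The stretches below run 5′ to 3′ with E-boxes in capitals and were chosen to set *Ogdhl* beside its paralogue *Ogdh* and beside *Idh1*, the gene with the highest level of the 10. They lie at chr14:32321849-32321907 on the plus strand, chr11:6291476-6291505 on the plus strand and chr1:65186548-65186577 on the minus strand.
Ogdhl: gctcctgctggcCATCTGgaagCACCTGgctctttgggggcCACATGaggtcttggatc
Ogdh: gctggctttggcCAGATGcaaagttctgca
Idh1: agaccttccgatCAGATGttcaggctgaaa
The fourth E-box of *Ogdhl*, CACGTG, lay 5 bases before the start and outside the stretch shown. The same promoter of *Idh1* held a further E-box, CATGTG, 31 bases after the start and also outside its stretch. CACGTG occurred in 7.2% of all promoters, and among these genes also in the downstream promoters of *Ogdh*, which held 2 E-boxes each. A match of these letters is a description of the sequence and says nothing of binding.

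Libraries held 42640218 to 62830060 counts, and levels are given as CPM, a gene's count divided by the total of its own library on a common scale, after TMM scaling of library sizes. *Npas3* itself was at 29.7 to 40.8 CPM in WT and 27.8 to 34.1 CPM in HET, and 3 of the 4 HET embryos lay below every WT embryo. Its log2 fold change was -0.30 (SE 0.10, unadjusted p of 0.0134, adjusted p = 0.877 from edgeR), with a 95% interval of -30.1% to -5.03%. The deleted gene itself thus was lower in HET on average but did not pass the test over all genes, and the groups overlapped. Which exons the deletion removes is not given in the sources used here. The labels name astrocytes, but the tissue is bulk forebrain. Markers of neurons (8 genes) summed to 6099.7 to 7106 CPM and those of astrocytes (8 genes) to 662 to 772 CPM. Single astrocyte markers differed widely, with *S100b* at most 0.326 CPM, *Aldoc* at 159 to 253 CPM and *Slc1a3* at 247 to 319 CPM. *Aqp4*, at 1.17 to 2.02 CPM in WT and 0.163 to 1.07 CPM in HET, did not overlap, beside 1.85% of all tested genes. *Aldh1l1* was at 15.3 to 31.7 CPM in WT and 2.79 to 18.5 CPM in HET. The other astrocyte markers overlapped as well, and 0 of the 7 tested passed an adjusted p of 0.05. In bulk tissue, fewer cells of a type and less RNA per cell cannot be told apart. Several libraries stood apart. Choroid plexus RNA was unequal, with *Ttr* at 2127 to 2631 CPM in WT embryos 15, 16 and 41, at 467 CPM in HET embryo 24 and at 0.770 to 11.7 CPM in the other 5, and the sum of all 10 choroid plexus markers spanned 19.3 to 2952 CPM in WT and 29.3 to 544 CPM in HET, with none of the 10 at 0 in all embryos. WT embryo 16 differed from the others by transcript length, with a Spearman's rho of -0.576 between a gene's deviation from its own mean and the length of its longest coding transcript over 14594 tested genes, against -0.031 to 0.208 in each of the other 8 embryos. These are correlations across genes, which are not independent replicates. WT embryo 5 stood apart for some markers. The blood marker *Hbb-y* was at 12.1 CPM there and at 0.889 to 2.94 CPM in the others, whereas *Hbb-bs* was lowest there, at 104 CPM. The neural progenitor markers *Hes5* and *Sox2* were at 46.6 and 213 CPM, against 13.0 to 16.3 and 110 to 143 CPM in the others. *Pax6*, of the same list, lay within the range of the others, at 157 CPM.

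The comparison of HET with WT used the quasi-likelihood test of edgeR over the 17818 genes that passed a filter on low counts, all 10 dehydrogenase genes included, and p-values were adjusted over all of them. No dehydrogenase gene passed an adjusted p of 0.05 (0 of 10), where 0.140% of all tested genes did. At an unadjusted p under 0.05 the count was also 0 of 10, against 5.42% of all tested genes. DESeq2, the tool of the study, likewise called 0 of 10 at an adjusted p under 0.05, where it called 0.381% of the genes it adjusted. WT and HET embryos overlapped for all 10 genes, whereas 1.85% of tested genes had groups that did not overlap. Of the 10 genes, 8 had a log2 fold change below 0 and the exceptions were *Ogdh* and *Ogdhl*, against 51.5% of all tested genes below 0. Their median log2 fold change was -0.08 and the range -0.145 to 0.07, against a median of -0.005 over all tested genes. These genes share libraries and steps and are not independent of each other, so the count of directions carries no test. The 95% intervals of the single genes bound what these embryos can show. The lower ends lay between -7.50% for *Ogdh* and -19.3% for *Mdh1*, and the upper ends between 1.40% for *Mdh1* and 20.5% for *Ogdhl*, so differences within these ranges were not resolved at this sample size.

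**Figure D1:**
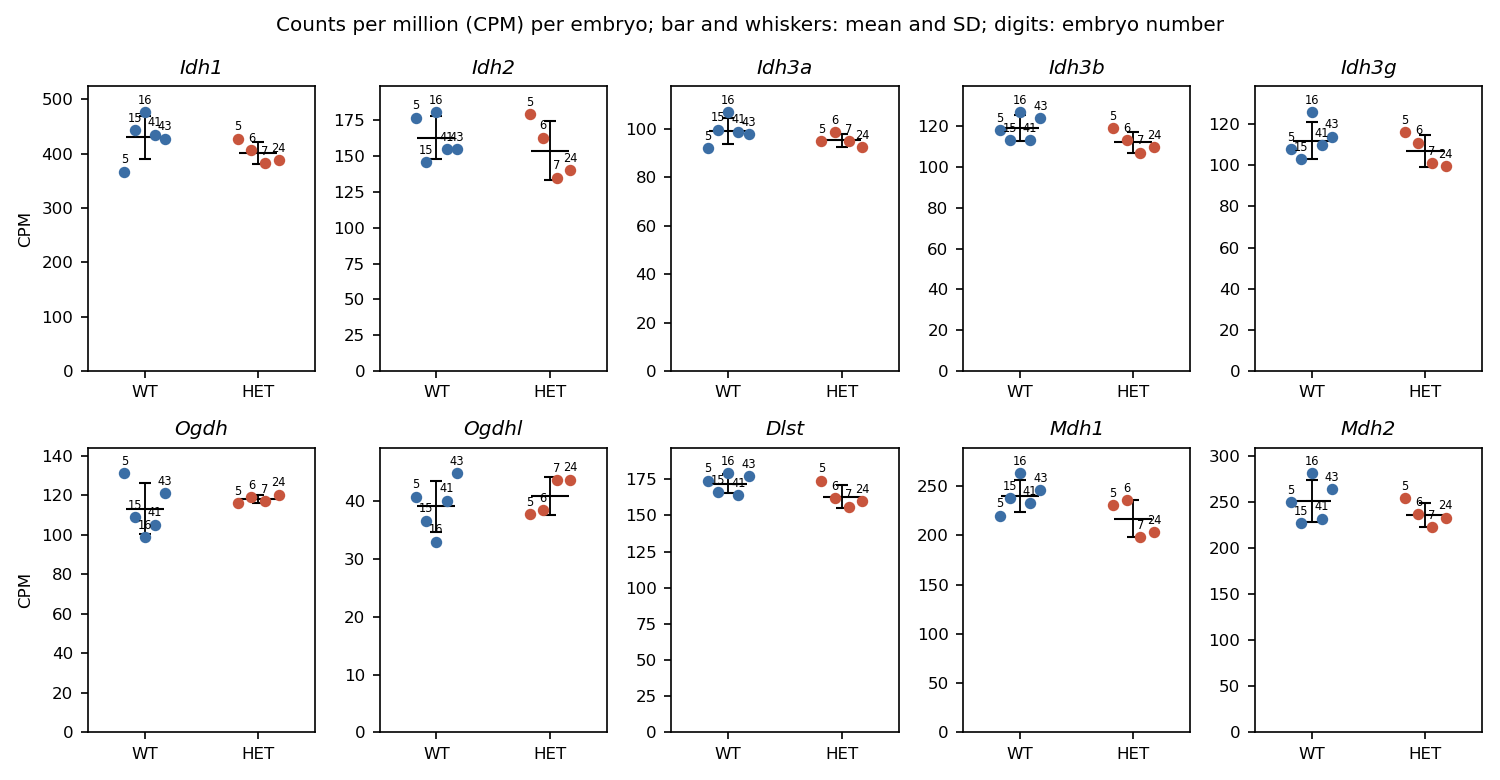
CPM (vertical axes, from 0) of the 10 dehydrogenase genes in WT and HET forebrain, with 1 point per embryo labelled by its number and the mean and SD as a bar with whiskers (n = 5 WT and n = 4 HET). WT and HET overlap in every panel, and WT embryo 16 is the highest embryo in 8 panels and the lowest in those of *Ogdh* and *Ogdhl*.

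*Idh1* (ENSMUSG00000025950, chromosome 1 from 65158616 to 65186500, minus strand, GRCm38) encodes the cytosolic and peroxisomal NADP-dependent isocitrate dehydrogenase, a source of NADPH for lipid synthesis and redox defence. It was at 367, 443, 477, 435 and 428 CPM in WT embryos 5, 15, 16, 41 and 43 and at 428, 407, 383 and 388 CPM in HET embryos 5, 6, 7 and 24. The lowest and the highest of the 9 values were both WT, and every HET embryo lay between them. The means were 430.2 ± 39.9 CPM (SD, n = 5) and 401 ± 20.4 CPM (SD, n = 4), with a log2 fold change of -0.10 (SE 0.078, adjusted p = 0.911 from edgeR). Its value turned on WT embryos, at -0.15 without WT embryo 5 (unadjusted p of 0.0407, adjusted p = 0.469 from edgeR), at -0.06 without WT embryo 16 and at 0.03 among the 5 embryos (2 WT, 3 HET) in which *Ttr* was under 100 CPM.

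*Idh2* (ENSMUSG00000030541, chromosome 7 from 80094846 to 80115392, minus strand) encodes the mitochondrial NADP-dependent enzyme, which can run in either direction and supplies NADPH inside the matrix. Its values in the same order of embryos were 177, 146, 181, 155 and 155 CPM in WT and 179.6, 163, 135 and 140.4 CPM in HET. It was the most variable of the 10 genes, with a coefficient of variation of 10.8% over the 9 embryos, and each genotype held both high and low embryos. HET embryos 7 and 24 lay below every WT embryo, while HET embryos 5 and 6 were within the WT range. The log2 fold change was -0.08 (SE 0.098, adjusted p = 0.933 from edgeR). Single embryos moved it widely, to -0.16 without HET embryo 5, -0.03 without HET embryo 24 and -0.02 without HET embryo 7. The summed CPM of 6 neural progenitor markers had a like spread in these embryos, at 2501 in WT embryo 5 and 2476 in HET embryo 5, where *Idh2* was high, and at 1769 in WT embryo 15 and 1686 in HET embryo 7, where it was low. The other 5 embryos did not follow this order throughout: WT embryo 16, the highest for *Idh2* at 181 CPM, had a sum of 2167, whereas WT embryo 43 had 2328 with *Idh2* at 155 CPM. Their part in the spread of *Idh2* was not tested.

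*Idh3a* (ENSMUSG00000032279, chromosome 9 from 54586334 to 54604661, plus strand) encodes the catalytic alpha subunit of the NAD-dependent enzyme of the cycle. It was the steadiest of the 10 genes by its coefficient of variation of 4.66%, at 92.1, 99.7, 107, 98.9 and 97.8 CPM in WT and 95, 98.5, 94.9 and 92.4 CPM in HET. All HET values lay inside the range of the WT embryos. The log2 fold change was -0.06 (SE 0.056, adjusted p = 0.913 from edgeR), with values of -0.03 without WT embryo 16 and 0.02 among the embryos with low *Ttr*.

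*Idh3b* (ENSMUSG00000027406, chromosome 2 from 130279309 to 130284547, minus strand) encodes the beta subunit, a structural and regulatory partner. It was at 118, 113, 127, 113 and 124 CPM in WT and at 119, 113, 107 and 109.7 CPM in HET, so that HET embryos 7 and 24 lay below every WT embryo and the other HET embryos did not. HET differed from WT by -0.09 on the log2 scale (SE 0.060, adjusted p = 0.911 from edgeR). *Idh3g* (ENSMUSG00000002010, chromosome X from 73778963 to 73786897, minus strand) encodes the gamma subunit, through which the complex responds to allosteric activators. It was at 108, 103, 126, 109.8 and 114 CPM in WT and at 116, 111, 101 and 99.5 CPM in HET, with HET embryos 7 and 24 again below every WT embryo. Its log2 fold change of -0.07 (SE 0.074, adjusted p = 0.920 from edgeR) was -0.02 without WT embryo 16 and -0.11 without HET embryo 5.

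*Ogdh* (ENSMUSG00000020456, chromosome 11 from 6291633 to 6356642, plus strand) encodes the thiamine-dependent component of the 2-oxoglutarate dehydrogenase complex, the part that decarboxylates the substrate. It was at 131, 109, 98.8, 105 and 121 CPM in WT, whereas the HET embryos stood close together at 116, 119, 117 and 120.2 CPM. Within WT, the 3 embryos with high *Ttr* were at 98.8 to 109 CPM and the embryos with low *Ttr* at 121 and 131 CPM. The HET embryos did not follow this order, since HET embryo 24, with *Ttr* at 467 CPM, was the highest of them at 120.2 CPM. The part of choroid plexus RNA in the spread of *Ogdh* was not tested. The log2 fold change of 0.06 (SE 0.080, adjusted p = 0.933 from edgeR) stayed above 0 in 15 of the 17 alternatives. The exceptions were -0.004 with the choroid plexus marker score as a covariate and -0.10 (adjusted p = 0.999 from edgeR) among the embryos with low *Ttr*. Without WT embryo 5 the log2 fold change was 0.12.

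*Ogdhl* (ENSMUSG00000021913, chromosome 14 from 32322019 to 32348151, plus strand) encodes a paralogue of the same component that is best known from brain. It was at 40.8, 36.6, 33.0, 40.1 and 44.8 CPM in WT and at 37.7, 38.4, 43.6 and 43.7 CPM in HET. Both the lowest and the highest embryo were WT. Its log2 fold change of 0.07 (SE 0.092, adjusted p = 0.938 from edgeR) was 0.01 without WT embryo 16, 0.13 without WT embryo 43 and -0.10 among the embryos with low *Ttr*.

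*Dlst* (ENSMUSG00000004789, chromosome 12 from 85110833 to 85134845, plus strand) encodes the lipoate-bearing succinyltransferase core of the complex. It lies 31038658 bases from *Npas3* on the same chromosome. It was at 174, 166, 179, 164 and 177 CPM in WT and at 174, 162, 156 and 159.7 CPM in HET, and 3 of the 4 HET embryos lay below every WT embryo, the most of any of the 10 genes. HET embryo 5, at 174 CPM, lay inside the WT range. The log2 fold change was -0.08 (SE 0.056, adjusted p = 0.911 from edgeR), and it ranged from -0.11 to -0.055 over the 17 alternatives, below 0 in all 17. *Idh2*, *Idh3b*, *Idh3g*, *Mdh1* and *Mdh2* were likewise below 0 in all 17.

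*Mdh1* (ENSMUSG00000020321, chromosome 11 from 21556787 to 21572367, minus strand) encodes the cytosolic malate dehydrogenase of the malate-aspartate shuttle, which carries reducing equivalents from glycolysis into mitochondria. It was at 220, 238, 263, 233 and 246 CPM in WT and at 231, 236, 198 and 203 CPM in HET. HET embryos 7 and 24 lay below every WT embryo, while HET embryos 5 and 6 were within the WT range. The means were 239.9 ± 16.0 CPM (SD, n = 5) and 217 ± 19.0 CPM (SD, n = 4). The log2 fold change of -0.145 (SE 0.075, adjusted p = 0.911 and unadjusted p of 0.0794 from edgeR) was the largest in size of the 10 and was below 0 in all 17 alternatives, from -0.18 to -0.07. The unadjusted p was 0.0421 without WT embryo 5. *Wdpcp* has exons on the other strand that overlap 2.03% of the *Mdh1* exons, the largest such overlap of the 10 genes.

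*Mdh2* (ENSMUSG00000019179, chromosome 5 from 135778480 to 135790398, plus strand) encodes the matrix enzyme that regenerates oxaloacetate. It was at 249.6, 227, 281, 232 and 264 CPM in WT and at 254, 237, 223 and 233 CPM in HET, where HET embryo 7 alone lay below the WT range. Its log2 fold change of -0.085 (SE 0.075, adjusted p = 0.912 from edgeR) was -0.04 without WT embryo 16 and -0.12 without HET embryo 5.

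**Figure D2:**
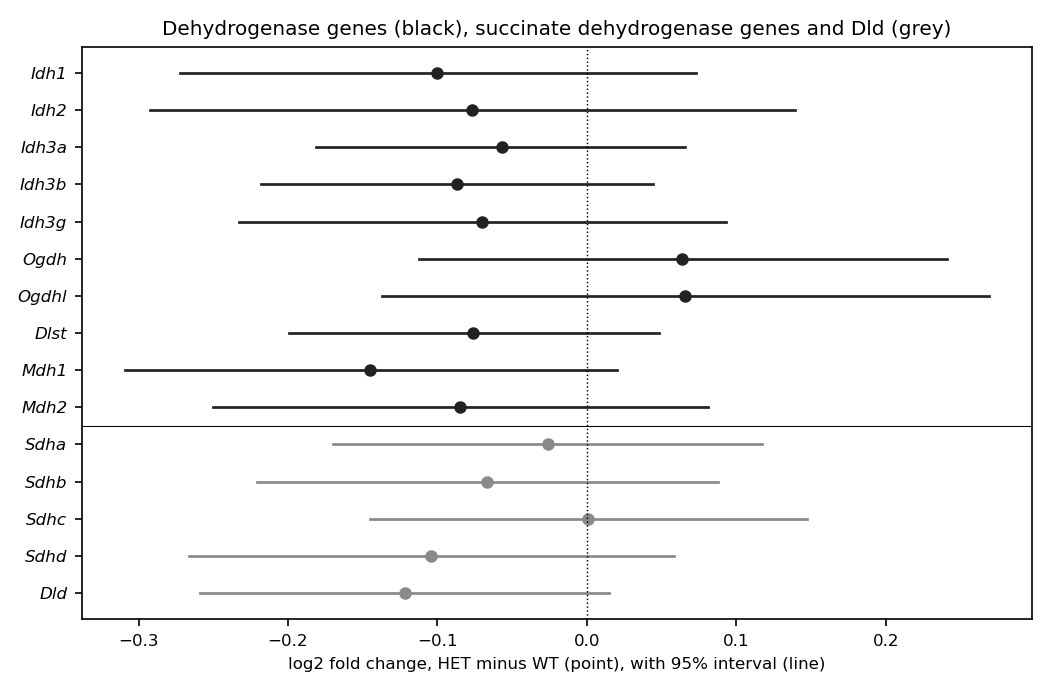
Log2 fold change of HET against WT (horizontal axis, points) with its 95% interval (lines) for the 10 dehydrogenase genes in black and the succinate dehydrogenase genes and *Dld* in grey. The intervals of all 10 dehydrogenase genes include 0, and *Ogdh* and *Ogdhl* are the only black points to the right of 0.

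The other enzymes of the cycle gave values of the same size. Of 12 further TCA cycle genes, none passed the adjusted threshold, and 10 had a log2 fold change below 0, with a median of -0.09. Succinate dehydrogenase, which links the cycle to the respiratory chain, had log2 fold changes of -0.03 for *Sdha*, -0.07 for *Sdhb*, 0.001 for *Sdhc* and -0.10 for *Sdhd*. *Dld*, the flavoprotein shared by the 2-oxoglutarate and pyruvate dehydrogenase complexes, had a mean of 129 CPM in WT (SD 7.80, n = 5) and of 119 CPM in HET (SD 5.99, n = 4), a log2 fold change of -0.12 (SE 0.062, adjusted p = 0.911 from edgeR).

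Of 14 genes for the entry of pyruvate, 9 were below 0 with a median log2 fold change of -0.03, and 0 passed either threshold. Of 14 genes for the malate-aspartate shuttle and side reactions of isocitrate, 2-oxoglutarate and malate, 9 were below 0 with a median of -0.02, and 0 passed the adjusted threshold. In that group *Glud1*, the glutamate dehydrogenase that makes 2-oxoglutarate from glutamate, was at 182 to 207 CPM in WT and 169 to 177 CPM in HET and was the only gene of the 14 whose groups did not overlap, beside 1.85% of all tested genes. Its log2 fold change was -0.13 (SE 0.055, unadjusted p of 0.0403, adjusted p = 0.911 from edgeR).

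WT embryo 16 was the highest embryo for 8 of the 10 genes, at 107% to 115% of each gene's mean over the 9 embryos, and the lowest for *Ogdh* and *Ogdhl*, at 85.8% and 82.7%. HET embryo 7 was the lowest for *Idh2*, *Idh3b*, *Dlst*, *Mdh1* and *Mdh2*. The longest coding transcripts of *Ogdh* and *Ogdhl*, at 4127 and 3723 bases, are the longest of the 10, and those of the other 8 genes have 1331 to 2764 bases. Over the 10 genes, Spearman's rho between transcript length and the deviation from the gene's mean was -0.83 in WT embryo 16, where the same measure over all tested genes was -0.576. It was -0.73 in HET embryo 5 and 0.70 in HET embryo 7, embryos in which the measure over all tested genes was 0.064 and 0.208. These values describe 10 genes of the same libraries, and the part of transcript length in the order of embryos was not tested. Without WT embryo 16, the log2 fold changes of all 10 genes were nearer to 0, at -0.11 to 0.02, and 8 remained below 0.

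**Figure D3:**
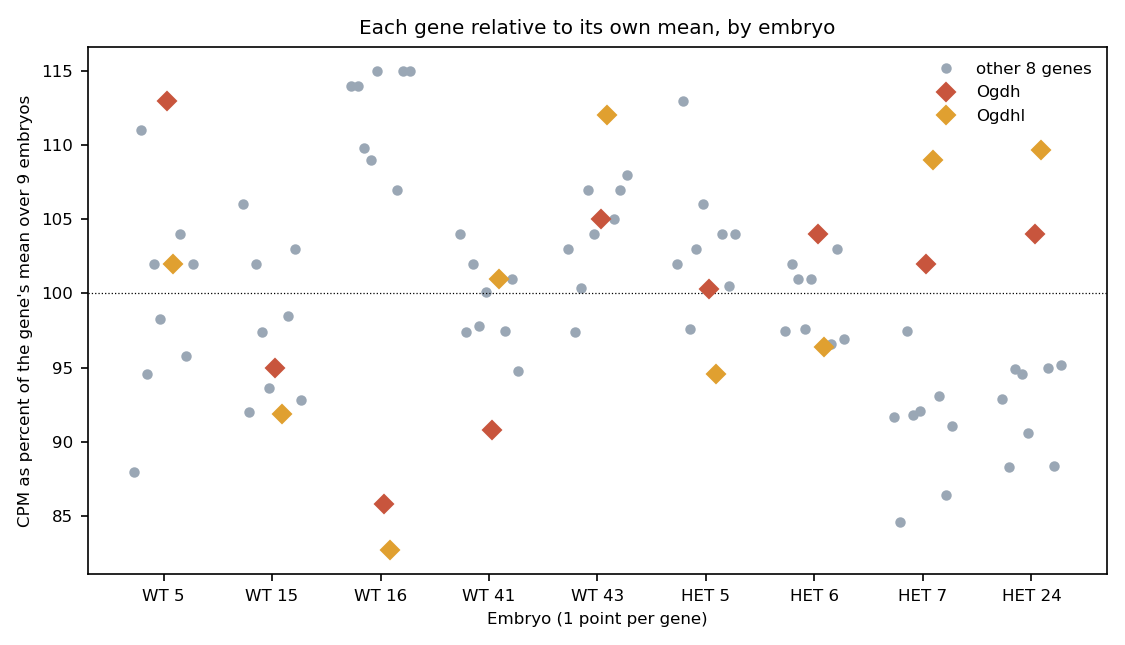
CPM of each dehydrogenase gene as a percentage of its own mean over the 9 embryos (vertical axis) in each embryo (horizontal axis), with *Ogdh* and *Ogdhl* as diamonds and the other 8 genes as circles. In WT embryo 16 the circles lie at 107% to 115% and the diamonds at 85.8% and 82.7%.

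Levels of different genes were compared per kilobase of exon, with all annotated exons of a gene as its length. *Idh1* led at 151 ± 12.4 CPM per kilobase (SD, n = 9 embryos), followed by *Mdh1* at 89.5 ± 7.88, *Mdh2* at 68.6 ± 5.44 and *Idh2* at 61.5 ± 6.66. The subunits of the NAD-dependent isocitrate dehydrogenase were lower, at 40.6 ± 3.11 CPM per kilobase for *Idh3g*, 33.9 ± 1.95 for *Idh3b* and 19.2 ± 0.895 for *Idh3a*. Among the 2-oxoglutarate dehydrogenase genes, *Ogdh* stood between *Idh3b* and *Idh3a*, and *Dlst* and *Ogdhl* came last, with *Ogdh* at 21.1 ± 1.76, *Dlst* at 17.6 ± 0.861 and *Ogdhl* at 9.61 ± 0.928 CPM per kilobase. The order of neighbours held in all 9 embryos except that *Ogdh* was above *Idh3a* in 7 of 9 and *Idh3a* above *Dlst* in 8 of 9.

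The choice of length moved this order. Per kilobase of the longest coding transcript, *Mdh2* was at 168 ± 13.3 CPM per kilobase (SD, n = 9) and second to *Idh1* at 181 ± 14.9, and *Dlst* was at 60.8 ± 2.98, above *Idh3a* at 37.7 ± 1.76 and *Ogdh* at 27.9 ± 2.32. *Dlst* has 9559 exonic bases over all its annotated transcripts against 2764 in the longest coding one, the largest gap of the 10 genes. *Idh1* was above *Mdh2* in 8 of 9 embryos by this length. *Idh1* was first and *Ogdhl* last by both lengths.

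**Figure D4:**
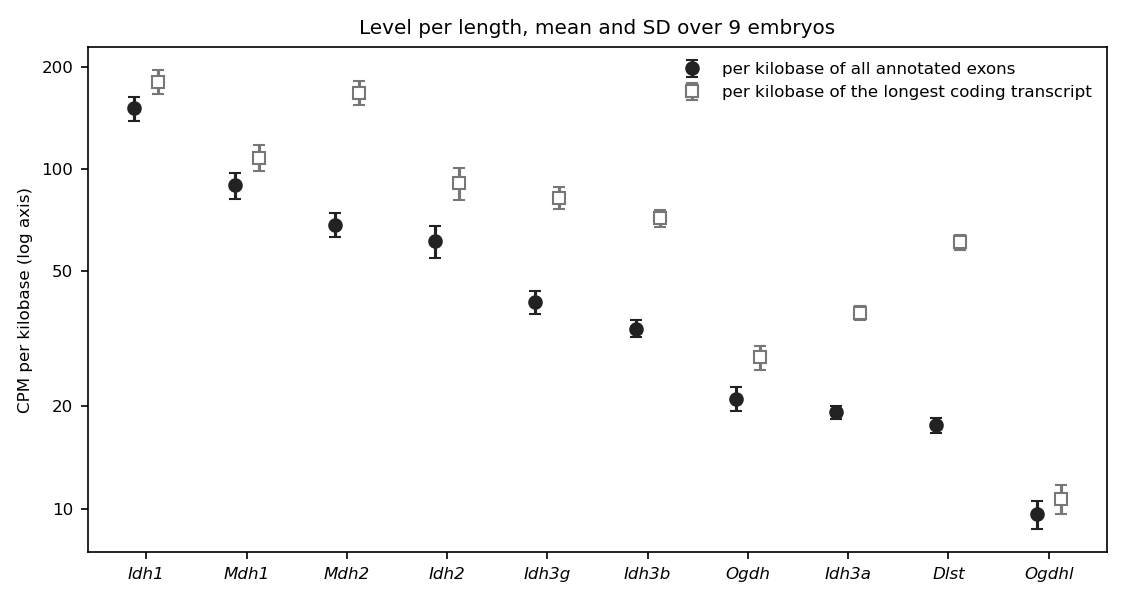
Level of each dehydrogenase gene in CPM per kilobase (vertical log axis) as mean and SD over 9 embryos, per kilobase of all annotated exons (filled circles) and of the longest coding transcript (open squares). *Idh1* is highest and *Ogdhl* lowest by both lengths, while *Mdh2* and *Dlst* move most between them.

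Isoforms and subunits were also compared within an embryo, as the ratio of their raw counts, which does not depend on library scaling. For 7 ratios set by enzyme step, group means of the log2 ratio were compared by an exact permutation test over embryos, two-sided, whose smallest possible p is 0.00794, with Benjamini-Hochberg adjustment over the 7. After this adjustment a single ratio cannot go below 0.0556 whatever its values, so the threshold of 0.05 was out of reach for a lone ratio. The adjusted values were 0.944 to 0.992. A p that misses the threshold does not show that the ratios were equal.

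For isocitrate, *Idh2* had on average 0.382 counts per count of *Idh1* in WT (SD 0.059, n = 5) and 0.383 in HET (SD 0.0321, n = 4), a log2 difference of 0.01 (exact permutation p = 0.929). WT embryo 5 was the highest at 0.483, and the other 8 embryos were at 0.330 to 0.420. Relative to the alpha subunit, the counts of the beta subunit (*Idh3b*/*Idh3a*) were 1.20 ± 0.0691 (SD, n = 5) and 1.18 ± 0.057 (SD, n = 4), with an exact permutation p = 0.556. Those of the gamma subunit (*Idh3g*/*Idh3a*) were 1.13 ± 0.0632 and 1.12 ± 0.0706, with an exact permutation p = 0.825. The subunit ratios spanned 1.12 to 1.28 and 1.03 to 1.22 over all 9 embryos. Mitochondrial *Idh2* per *Idh3a* was 1.65 ± 0.174 in WT and 1.62 ± 0.204 in HET (exact permutation p = 0.810).

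For 2-oxoglutarate, *Ogdhl* had on average 0.347 counts per count of *Ogdh* in WT (SD 0.029, n = 5) and 0.346 in HET (SD 0.0255, n = 4), with a log2 difference of -0.001 (exact permutation p = 0.992). Per kilobase of exon, *Ogdhl* made up 29.1% to 33.5% of the sum of both paralogues, at 31.3% ± 1.80 in WT and 31.3% ± 1.59 in HET. This was the smallest difference of the 7 ratios, whereas *Dlst* per *Ogdh* had the largest. That ratio was 1.33, 1.51, 1.81, 1.57 and 1.46 in WT embryos 5, 15, 16, 41 and 43 and 1.51, 1.36, 1.33 and 1.33 in HET embryos 5, 6, 7 and 24, a log2 difference of -0.15 (exact permutation p = 0.135). WT embryo 16 was the highest at 1.81, and among the 5 embryos with low *Ttr* the difference was 0.004.

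For malate, *Mdh2* had on average 1.05 counts per count of *Mdh1* in WT (SD 0.0709, n = 5) and 1.09 in HET (SD 0.0621, n = 4), a log2 difference of 0.06 (exact permutation p = 0.310). The ratio was below 1 in WT embryos 15 and 41, at 0.954 and 0.996, and spanned 0.954 to 1.15 over all 9 embryos.

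**Figure D5:**
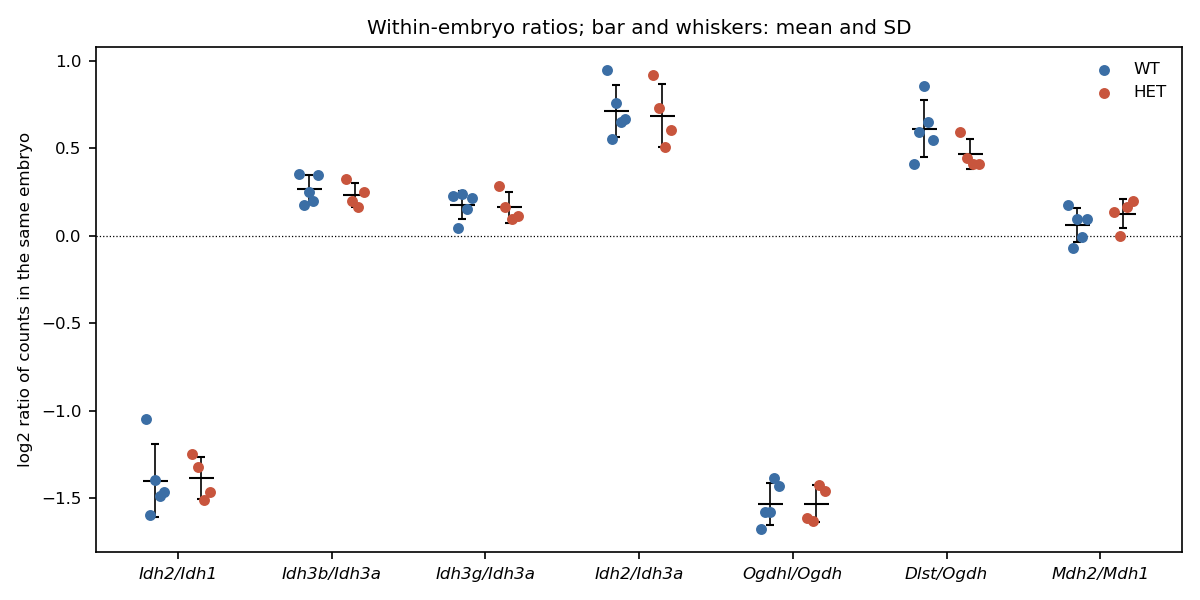
Log2 ratio of the counts of a pair of dehydrogenase genes in the same embryo (vertical axis) for 7 pairs (horizontal axis), with 1 point per embryo in blue for WT and red for HET and the mean and SD as a bar with whiskers. WT and HET points overlap for all 7 pairs, and the widest spread is that of *Idh2*/*Idh1* in WT, from WT embryo 5.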

How the data were processed

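Poly(A) RNA was captured by the authors for TruSeq libraries, and only 1 read of each pair was used. Reads were aligned with STAR 2.7.9a to GRCm38.p6, and the deposited values are raw featureCounts counts per gene on GENCODE M25. Strand and multi-mapping settings are not given in the sources used here. No sample pairs were identical, and all 9 columns matched a label. Embryo numbers name animals and pair nothing.

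Counts were filtered with filterByExpr (minimum count 10), scaled by TMM and tested with edgeR 4.0.16 in R 4.3.3, with Benjamini-Hochberg adjustment and a threshold of 0.05. DESeq2 1.42.0 and limma 3.58.1 served as alternatives. Fits were tested on simulated counts, and the permutation code was checked on a fixed set of values against a separate implementation. Lengths and positions came from GENCODE M21, also GRCm38, which lists 55141 of the 55401 identifiers. At most 0.33% of the 50-base words of any of the 10 genes occur in transcripts of another gene. Totals had a median of 45845845, and precision covers counting error and the spread between embryos only. The genes and lists were chosen with earlier results of these data known. Named were the 10 genes, *Npas3*, *Ttr*, the succinate dehydrogenase genes, *Dld*, list genes with an unadjusted p under 0.05, and for each dehydrogenase gene the 2 genes most like it in pattern. Some genes that this rule or the lists include are not reported here by name.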

Additional observations from a re-analysis of the deposited data

How the results depend on the processing

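None of the 10 dehydrogenase genes was called under any of 17 alternatives, and the lowest adjusted p in any of them was 0.469. Over all tested genes, 25 were called by edgeR, 84 by DESeq2 and 15 among the 5 embryos (2 WT, 3 HET) in which *Ttr* was under 100 CPM, a subset chosen after the data were seen. Leaving out each embryo in turn gave 14 to 23 calls, with 16 without HET embryo 5, 14 without HET embryo 6 and 16 without HET embryo 7. The other settings, which were limma-voom, other scalings, other filters on low counts and the choroid plexus score as a covariate, gave 23 to 35. Of the 10 genes, 8 were below 0 in each alternative except with the choroid plexus score, where 9 were. They were not always the same 8, since *Idh1* and *Idh3a* were above 0 and *Ogdh* and *Ogdhl* below it among the embryos with low *Ttr*. Without WT embryo 5, *Idh1* and *Mdh1* had unadjusted p-values under 0.05, and no other setting gave any. The tests of the within-embryo ratios were too small to pass for a lone ratio and say nothing of stability. With 5 and 4 embryos, differences inside the 95% intervals were not resolved. No paired analysis was possible because embryo numbers pair nothing and no litter is given for single embryos. Batch and date are not given either, so none of these could be modelled.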

Other observations

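Relatives of the dehydrogenase genes and the enzymes of 2-hydroxyglutarate were examined as well. *Dhtkd1*, a paralogue of *Ogdh* that acts in lysine breakdown, was at 17.0 CPM in WT and 16.4 CPM in HET on average, a log2 fold change of -0.06 (adjusted p = 0.940 from edgeR). *D2hgdh*, which oxidises the D form of 2-hydroxyglutarate, had a log2 fold change of 0.04 (adjusted p = 0.968 from edgeR). The low genes *Adhfe1*, a hydroxyacid-oxoacid transhydrogenase, and *Mdh1b*, a paralogue of *Mdh1*, had larger values. *Adhfe1* was at 0.353 to 1.42 CPM in WT and 0.0433 to 0.517 CPM in HET, from 2 to 90 counts per embryo, with a log2 fold change of -1.48 (SE 0.54, unadjusted p of 0.0195, adjusted p = 0.907 from edgeR). *Mdh1b* was at 0.120 to 0.796 CPM in WT and 0.0866 to 0.256 CPM in HET, from 4 to 36 counts, with a log2 fold change of -1.22 (SE 0.49, unadjusted p of 0.0313, adjusted p = 0.908 from edgeR). WT and HET overlapped for both genes. The highest values of both were those of WT embryos 15 and 41, whose choroid plexus markers were high. WT embryo 16, also high for these markers, had *Adhfe1* at 0.631 CPM, below the 0.770 CPM of WT embryo 5, where they were low. The astrocyte marker *Aldh1l1* was, like *Adhfe1*, highest in WT embryo 41, at 31.7 CPM, and lowest in HET embryo 5, at 2.79 CPM. *Aldoc*, another astrocyte marker, was instead highest in HET embryo 5, at 253 CPM. The part of either cell type in the spread of *Adhfe1* and *Mdh1b* was not tested. Exons of another gene on the opposite strand overlap 4.07% of the *Adhfe1* exons.

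Among all tested genes, those whose log2 CPM followed a dehydrogenase gene most closely over the 9 embryos were found by Pearson's r, given as a description of shared libraries with no test. The closest to *Idh1* were C630043F03Rik (r of 0.993) and *Gtf2h1* (0.982), to *Idh2* *Oip5* (0.981) and *Tex30* (0.975), and to *Idh3a* *Tmbim4* (0.951) and *Selenos* (0.949). *Cops7b* (0.993) and *Prpf19* (0.972) were closest to *Idh3b*, and *Cct7* (0.985) and *Lsm8* (0.976) to *Idh3g*. For the 2-oxoglutarate step they were *Rab11fip3* (0.975) and *Cluh* (0.968) for *Ogdh*, *Pou6f1* (0.935) and *Gm6210* (0.934) for *Ogdhl*, and *Tkt* (0.992) and *Ska3* (0.978) for *Dlst*. For malate they were *Farsb* (0.972) and *Eif3e* (0.965) for *Mdh1* and *Parp2* (0.984) and *Atg101* (0.975) for *Mdh2*. No dehydrogenase gene was among the 2 closest genes of another. Without WT embryo 16 the values of these 20 pairs were 0.868 to 0.991 over 8 embryos. With this few embryos, high values of r can arise among 17818 genes.

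No embryo stood apart from its group by Dixon's criterion in any of 34 groups, made of the 10 genes and 7 ratios in WT and in HET, where chance gives about 1.7. With 5 or 4 embryos in a group, the criterion can flag only a value far from all others. The groups also share the same libraries, so this result does not show that all embryos were alike.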
